A study of Mus musculus with 8 samples.

Results

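Clusters 4 and 7 are a pair of mesenchymal stromal cell populations that were sorted from mouse bone marrow, in the sort plots of the study cluster 4 as CD54-positive and cluster 7 as CD54-negative cells, and their RNA-seq libraries were compared here gene by gene. The comparison used 2 of the 8 libraries of the series, 1 library for each population. Of the 49315 genes counted, 10077 were described, namely those with an RPKM above 2 (reads per kilobase of exon, scaled to library size) and with 50 or more counts in at least 1 of the 2 libraries. The median log2 ratio of these genes, cluster 4 over cluster 7, was -0.01.

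Both libraries came from wild-type C57BL/6J mice aged 6 weeks per the labels, and the methods of the study give a wider range of ages. No treatment or transgene was named for these libraries. The labels give only the cluster numbers, and their extraction protocol names crushed marrow without a sort, so the gates stated here were read by eye from the sort plots and the labels do not settle them. As read, both gates left out cells that carry CD31 (endothelial), CD45 (blood) or Ter119 (red cell lineage) on their surface, and both left out Ly-6C-positive and CD24-positive cells. Cluster 7 was also gated as Sca-1-positive, whereas cluster 4 was not gated on Sca-1. The study defined all 7 clusters within a fraction positive for Sca-1 and PDGFR-alpha, and its methods list antibodies to both for sorting. Whether the sort of cluster 4 was drawn from that fraction is not settled by the plots as read. The gates were set on antibody staining of protein, and the number of animals behind each library is not given in the sources used here. The cluster 4 library held 32549319 counts over 27137 genes, and the cluster 7 library held 33238133 counts over 25493 genes. With 1 library per population there was no replicate check, so no p-value is given, a gene is called different when its RPKM + 1 differs more than 2-fold, and each interval covers the counting error of 1 pair of libraries only. Where a pair of RPKM values is given for a gene, the first is that of cluster 4 and the second that of cluster 7. The sequenced reads carried no molecular identifiers, so these intervals are narrower than the error between animals or sorts would be.

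CD54, the product of Icam1, is an adhesion receptor for integrins of leukocytes and is induced by inflammatory signals in many cells. Stromal cells of the marrow hold blood stem cells in place with the chemokine CXCL12 and with stem cell factor, and the cells that make most of both carry the leptin receptor (Lepr). Sca-1, the product of Ly6a, marks stromal progenitors in mouse marrow and bone. The same stromal lineage can give rise to cartilage, bone and fat, each with its own matrix proteins and transcription factors.

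In all, 570 of the described genes (5.66%) differed more than 2-fold, 313 (3.11%) being higher in cluster 4 and 257 (2.55%) higher in cluster 7. These shares, with the median of -0.01, are the background beside which each gene list is read, and 1 call in a list of about 30 genes is near it. The libraries were otherwise alike, since 94.3% of the described genes lay within 2-fold and 80.7% within 1.5-fold. Beyond 4-fold the counts were 50 genes in cluster 4 and 13 in cluster 7, of which 36 and 4 had an established name and were not antigen receptor segments. Among genes with an established name, cartilage matrix genes led the cluster 4 side, and the matrix gene Tnn, red cell genes and the muscle growth inhibitor Mstn were among the leading genes of the cluster 7 side, where antigen receptor segments had larger ratios still. Of 114 named genes beyond 2-fold, 62 stayed beyond it in every alternative of scaling, pseudocount and depth computed for them, and 52 fell within it in 1 or more. When libraries were scaled by total count in place of TMM, the log2 ratio of the median described gene moved to -0.12 and cluster 4 held 39.0% of the called genes in place of 54.9%, so ratios near 2-fold are read relative to that shift.

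**Figure D1:**
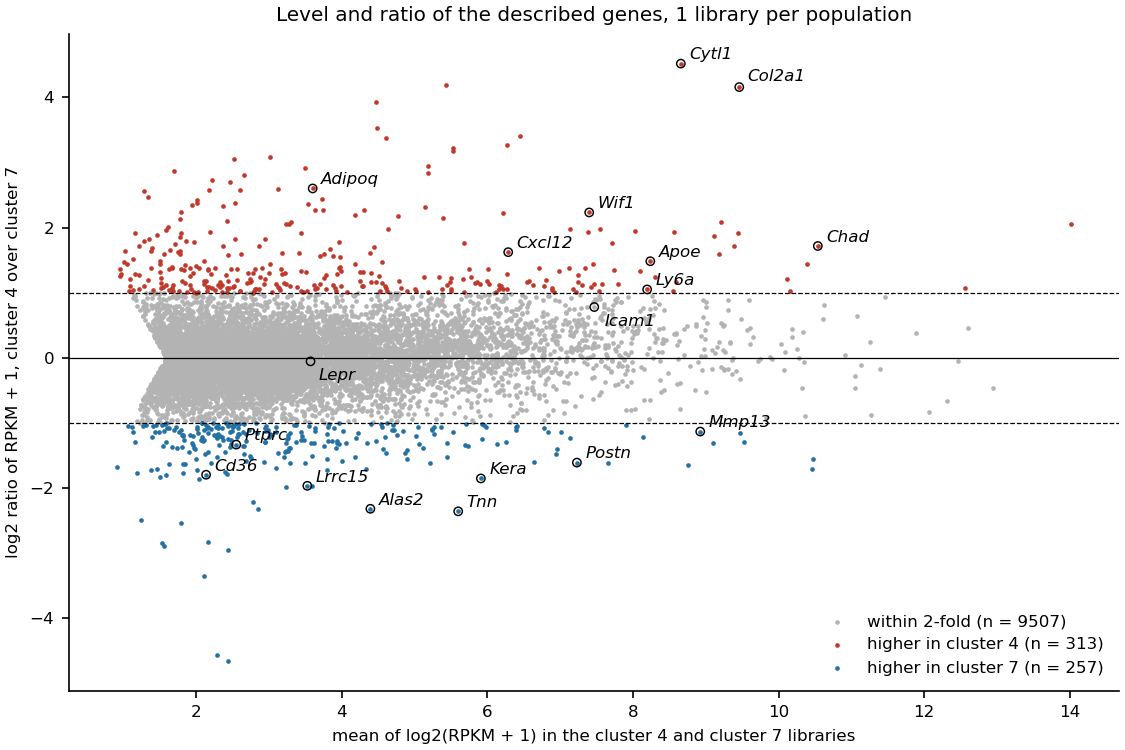
Level (x axis, mean of log2(RPKM + 1) of the pair) against the log2 ratio of RPKM + 1, cluster 4 over cluster 7 (y axis), with 1 point per described gene; dashed lines mark 2-fold. The 313 genes higher in cluster 4 reach a log2 ratio of 4.52 (Cytl1) at high levels, whereas the 2 lowest points, at -4.65 (Gm16842) and -4.57 (Igkv15-103), have no more than 1 count in cluster 4 and stand at 26.3 and 22.8 RPKM in cluster 7.

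Cyb561, at a log2 ratio of 1.001, was the last named gene inside the call for cluster 4, and Dlk1, at 0.999, the first outside it. For cluster 7 these were Elmo1 at -1.0001 and Cx3cr1 at -0.9997. At the filter on level, Madd entered with 2.001 RPKM in cluster 7 and Tie1 stayed out with 1.9997 RPKM.

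The transcripts of the sort markers were set beside the gates as read from the sort plots. Icam1 (chromosome 9, 21015985-21028817, GRCm38) was at 231 RPKM in cluster 4 and 134 RPKM in cluster 7, a ratio of 1.72 (95% counting interval 1.69 to 1.75), which stayed under 2-fold. These were the 2 highest of the 7 sorted libraries, since Icam1 was at 61.7 RPKM in cluster 1, 55.2 RPKM in cluster 5, 23.5 RPKM in cluster 6, 12.7 RPKM in cluster 2 and 11.2 RPKM in cluster 3. The library read as that of the CD54-negative gate thus held more Icam1 mRNA than 5 other sorted libraries.

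Ly6a, the gene of Sca-1, was at 421 RPKM in cluster 4 and 203 RPKM in cluster 7, a ratio of 2.08 (2.02 to 2.13). As the plots were read, only cluster 7 was gated as Sca-1-positive, but the study defined all 7 clusters within a Sca-1-positive fraction. Higher levels of Ly6a than in the pair were found in cluster 3 (917 RPKM) and cluster 1 (492 RPKM). Under total count scaling its log2 ratio was 0.93, below the 2-fold mark. Ly6c1, 1 of the genes whose product the Ly-6C antibody detects, was at 119 and 48.2 RPKM (2.47-fold higher in cluster 4), whereas its neighbour Ly6c2 was at 68.0 and 104 RPKM (1.53-fold higher in cluster 7). Ly6c1 and Ly6c2 are close paralogs, so reads may be split between them with error. Cd24a was at 51.8 and 64.9 RPKM, and Pdgfra, a receptor used to define marrow stromal cells, at 19.3 and 23.7 RPKM, both within 2-fold.

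Il1r2, a decoy receptor for interleukin-1 and a candidate marker of the study, was at 74.9 RPKM in cluster 4 and 159 RPKM in cluster 7 (2.13-fold higher in cluster 7). Il1r2 is also among the 8 genes of the neutrophil granule list that were called higher in cluster 7. Entpd1, the ectonucleotidase CD39, was at 7.17 and 12.5 RPKM, a 1.74-fold difference within the 2-fold mark. Of the genes of the lineage gate, those of CD45 and CD31 were low in both libraries. Ptprc (CD45) was at 2.70 and 8.31 RPKM (3.08-fold higher in cluster 7). Pecam1 (CD31) was at 1.47 and 2.66 RPKM, a difference within the 2-fold mark.

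**Figure D2:**
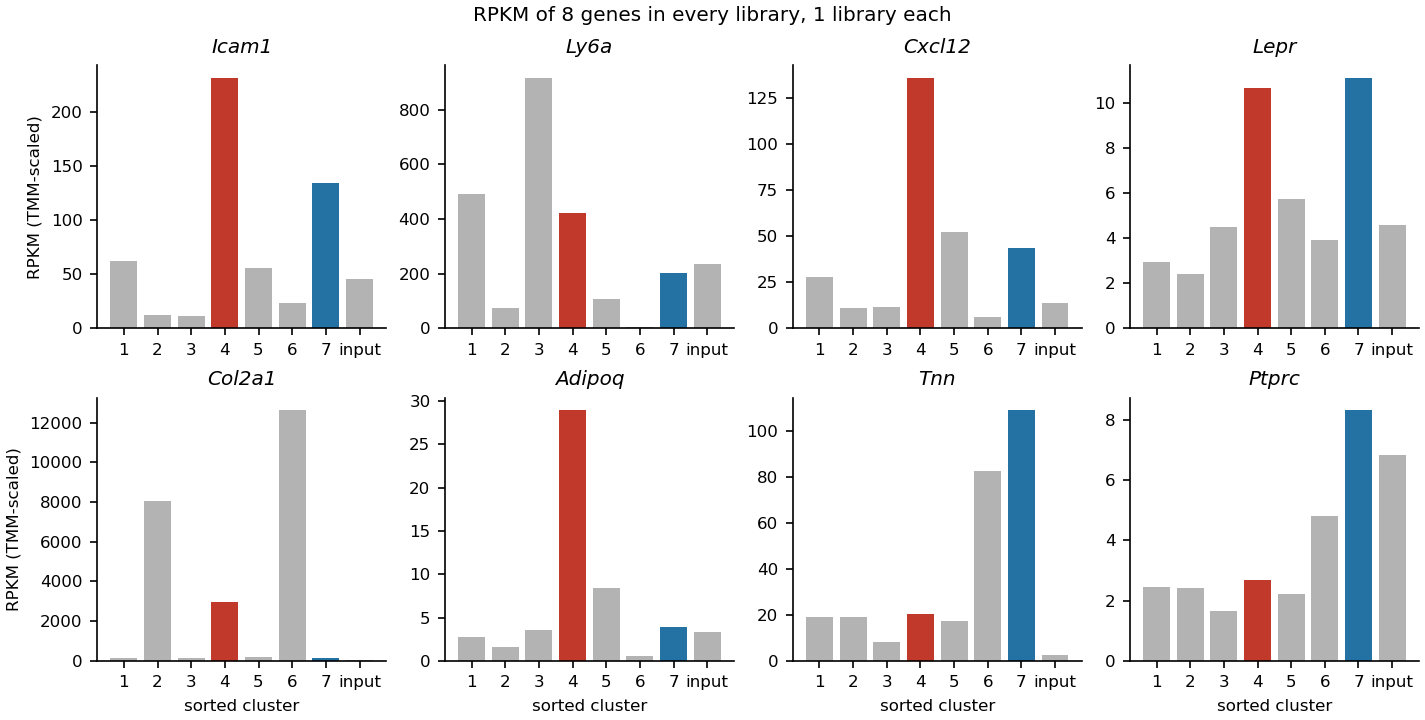
RPKM (y axis, from 0) of 8 genes in the 7 sorted libraries and the input bone marrow (x axis), 1 bar per library, with cluster 4 in red and cluster 7 in blue. Icam1 and Lepr are highest in the pair, Cxcl12 and Adipoq stand out in cluster 4 alone, Col2a1 is higher in clusters 2 and 6 than in cluster 4, and Tnn and Ptprc peak in cluster 7.

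Promoter windows of the genes that define the pair are shown with their RefSeq starts: Icam1 and Cxcl12 as the marker of the gate and the niche chemokine, Cytl1 and Tnn as the named genes with the largest ratio of RPKM + 1 in each direction. Each window runs from 250 bases before to 50 bases after the RefSeq start (300 bases, GRCm38.p6), is written 5′ to 3′ on the strand of the gene, and has in capitals every match, on either strand, to GGANNNTCC (the core of a kappa B site), GGGCGG (the GC box, CCGCCC on the other strand) or TATAAA (the TATA box). The windows lie at chr9:21015690-21015989 for Icam1, chr6:117168285-117168584 for Cxcl12, chr5:37735269-37735568 for Cytl1 (all on the plus strand) and chr1:160153526-160153825 for Tnn (minus strand).
Icam1: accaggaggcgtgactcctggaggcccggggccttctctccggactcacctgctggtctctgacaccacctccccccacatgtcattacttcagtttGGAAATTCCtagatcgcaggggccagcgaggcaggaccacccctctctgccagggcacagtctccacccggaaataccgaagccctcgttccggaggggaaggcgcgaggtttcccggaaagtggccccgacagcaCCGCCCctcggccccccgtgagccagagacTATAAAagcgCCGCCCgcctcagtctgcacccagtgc
Cxcl12: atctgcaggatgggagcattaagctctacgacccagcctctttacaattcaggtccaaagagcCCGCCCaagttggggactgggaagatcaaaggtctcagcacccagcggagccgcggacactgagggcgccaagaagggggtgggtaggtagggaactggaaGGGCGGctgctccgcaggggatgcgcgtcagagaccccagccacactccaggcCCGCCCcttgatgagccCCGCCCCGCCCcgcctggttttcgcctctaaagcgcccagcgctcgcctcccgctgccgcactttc
Cytl1: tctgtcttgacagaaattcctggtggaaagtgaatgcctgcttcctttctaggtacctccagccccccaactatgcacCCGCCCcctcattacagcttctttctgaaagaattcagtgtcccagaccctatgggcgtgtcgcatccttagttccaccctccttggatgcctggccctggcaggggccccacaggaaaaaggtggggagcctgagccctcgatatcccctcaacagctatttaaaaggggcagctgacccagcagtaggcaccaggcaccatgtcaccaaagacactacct
Tnn: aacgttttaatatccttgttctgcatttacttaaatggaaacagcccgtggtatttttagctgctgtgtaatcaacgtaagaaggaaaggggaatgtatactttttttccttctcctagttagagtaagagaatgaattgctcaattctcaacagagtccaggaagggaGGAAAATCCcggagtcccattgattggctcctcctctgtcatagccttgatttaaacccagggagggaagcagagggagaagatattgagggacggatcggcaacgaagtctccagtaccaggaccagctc
Icam1 held a kappa B type match whose first base lies at position -153 from the RefSeq start (+1), 2 GC boxes at -17 and 24, and a TATA box at 14. The Icam1 gene as counted starts at 21015985, inside this window and downstream of all 4 matches. Cxcl12 held 5 GC boxes, of which the last 2 share 1 base, and neither of the other motifs. Cytl1 held 1 GC box at -172, and Tnn held 1 kappa B type match at -81. Of all 32851 promoter windows in the RefSeq table, 8.62% held the kappa B type letters, 35.7% the GC box and 13.6% the TATA box. In windows of genes higher in cluster 4 these shares were 9.14%, 52.7% and 15.6% (186 windows of 154 genes), and in windows of genes higher in cluster 7 they were 7.84%, 33.8% and 14.7% (204 windows of 175 genes). For the described genes as a whole the shares were 10.3%, 63.8% and 7.58%. A match of letters is a description and does not show that a factor binds there.

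Niche factors were higher in cluster 4 for Cxcl12 but not for Lepr. Cxcl12 (chromosome 6, 117168535-117181367) was at 136 RPKM in cluster 4 and 43.5 RPKM in cluster 7, a ratio of 3.13 (3.06 to 3.19), and cluster 4 was the highest of the sorted libraries. Lepr was at 10.7 RPKM and 11.1 RPKM, a ratio of 0.960 (0.909 to 1.01), and the pair again held the highest levels of the 7 libraries. Of 21 described genes in the list of niche factors and regulators, 4 were higher in cluster 4 (background 3.11%), none in cluster 7 (2.55%), and the median log2 ratio was 0.24.

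The other 3 genes called encode secreted proteins. Grem1, a BMP antagonist, was at 4.12 and 0.964 RPKM. Esm1, a proteoglycan, was at 8.99 and 3.46 RPKM. The calls of Grem1 and Esm1 were lost in 1 alternative setting each, at log2 ratios of 0.61 and 0.72. Tnfrsf11b, the decoy receptor osteoprotegerin that restrains osteoclasts, was at 45.4 and 21.9 RPKM, and its call was lost in 3 alternative settings (lowest log2 ratio 0.90). Gas6, a ligand of TAM receptors, was at 300.5 and 159 RPKM, just within 2-fold. Kitl, which encodes stem cell factor, was low in both at 4.64 and 3.34 RPKM. Vcam1, an adhesion molecule of niche cells, was near equal at 25.4 and 24.0 RPKM, and so was Spp1 (osteopontin), the most abundant member, at 1283 and 1166 RPKM. Il6, Cxcl14 and Igf1, secreted products of stromal cells chosen for mention after their values were seen, were at 185 and 123 RPKM, 170 and 106 RPKM, and 37.4 and 26.2 RPKM.

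Fat cell genes differed gene by gene. Adipoq (adiponectin), a hormone of fat cells that marrow stromal cells with adipogenic bias also make, was at 28.9 RPKM in cluster 4 and 3.93 RPKM in cluster 7, a ratio of 7.35 (6.33 to 8.57), and no other sorted library exceeded 8.40 RPKM. Apoe, a lipid carrier, was at 504 and 180 RPKM and Agt (angiotensinogen) at 30.0 and 11.4 RPKM. Cd36, a fatty acid receptor of fat cells and also of macrophages and red cell precursors, went the other way, at 1.36 and 7.20 RPKM. Pparg, the regulator of fat cell fate, was under the filter on level at 1.78 and 1.10 RPKM, while Acsl1, a fatty acid activating enzyme, had a log2 ratio of -0.93. Of 17 described members 3 were higher in cluster 4 and 1 in cluster 7, beside backgrounds of 3.11% and 2.55%, with a median log2 ratio of 0.15. Lep and Cidec, made by mature fat cells, had no count in cluster 7, and neither passed the filter on level.

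Cartilage genes made up the leading difference of cluster 4. Of 25 described genes in the list of cartilage and tendon genes, 15 were more than 2-fold higher in cluster 4 and 1 in cluster 7, with a median log2 ratio of 1.44. Over all described genes these shares were 3.11% and 2.55% and the median was -0.01. Col2a1, the fibrillar collagen of cartilage, was at 2976 RPKM in cluster 4 and 166 RPKM in cluster 7, a ratio of 17.9 (17.8 to 18.1). It was not highest in cluster 4, because clusters 6 and 2 held 12621 and 8042 RPKM, while clusters 1, 3 and 5 stayed between 132 and 189 RPKM.

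Cytl1, a secreted cytokine-like protein found in cartilage, had the largest ratio of RPKM + 1 of all genes with an established name, at 1932 against 83.4 RPKM (23.2-fold, 22.4 to 24.0), and was highest in cluster 4 of the 7 libraries. Ucma, a vitamin K dependent matrix protein of the growth plate, was at 85.1 and 4.68 RPKM. Cnmd (chondromodulin), an inhibitor of vessel growth in cartilage, was at 283 and 25.8 RPKM. The 3 chains of collagen IX, which coats collagen II fibrils, were all higher in cluster 4: Col9a1 at 99.8 and 12.1 RPKM, Col9a2 at 137 and 14.3 RPKM and Col9a3 at 238 and 23.8 RPKM. Mia1 and Scrg1, both expressed by chondrocytes, were at 74.7 and 5.57 RPKM and at 140 and 14.1 RPKM. Chadl, a leucine-rich matrix protein that binds collagen, was at 22.5 and 1.77 RPKM. Gpha2, a glycoprotein hormone subunit, was at 77.2 and 6.56 RPKM, and in contrast to the collagens it was nearly silent in cluster 6 (0.638 RPKM).

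The remaining leading genes of cluster 4 were Mfi2 (melanotransferrin), at 29.9 and 3.09 RPKM, and Fam25c, at 7.72 and 0.199 RPKM, whose cluster 7 level rests on 3 counts. 3110079O15Rik, left outside the rule for named genes by its Rik symbol and chosen after its values were seen, was at 184 and 9.17 RPKM. Its log2 ratio was 4.18, and its level was 1593 RPKM in cluster 2 and 562 RPKM in cluster 6. In clusters 1, 3 and 5 it was at most 31.7 RPKM. Other members of the cartilage list, also picked out after their values were seen, included Sox9, the transcription factor that drives cartilage formation, at 94.8 and 41.2 RPKM, and Acan (aggrecan) at 48.5 and 11.5 RPKM. The lubricant of joint surfaces, Prg4, was at 1055 and 287 RPKM and highest in cluster 3 (2444 RPKM). Chad, a cartilage protein that binds integrins, reached 2698 and 820 RPKM. Scx, the tendon transcription factor, was at 32.7 and 32.8 RPKM and Tnmd (tenomodulin) at 203 and 162 RPKM. Kera (keratocan) was the member higher in cluster 7, at 30.7 and 113 RPKM.

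Of 32 described collagen genes 9 were higher in cluster 4 (background 3.11%), 1 in cluster 7 (near the background of 2.55%) and 22 within 2-fold, and the median log2 ratio was 0.13. Collagens II, IX, X and XI accounted for 7 of the 9. Col11a2 was at 77.8 and 14.8 RPKM. Col1a1, the main collagen of bone, was instead at 1917 and 2330 RPKM (log2 ratio -0.28), the 2 lowest levels of the 7 sorted libraries. Col13a1, a transmembrane collagen, was the member higher in cluster 7, at 1.22 and 6.29 RPKM. It was higher still in clusters 6, 3, 2 and 5 (25.3, 11.8, 7.10 and 6.59 RPKM). Its call was lost in 1 alternative, at a log2 ratio of -0.86.

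Of 21 described members of the osteoblast list 2 were higher in cluster 4, none in cluster 7 (backgrounds 3.11% and 2.55%), and the median log2 ratio was -0.01. The 2 genes were Sparc (osteonectin), at 8783 and 4166 RPKM, and Smpd3, a sphingomyelinase needed for mineralization that chondrocytes also express, at 11.7 and 4.98 RPKM. Neither kept its call under total count scaling, with log2 ratios of 0.95 for Sparc and 0.99 for Smpd3. Sp7, the osteoblast transcription factor osterix, was at 3.30 and 7.56 RPKM with a log2 ratio of -0.99, and it passed 2-fold in 5 of the alternative settings. Bglap2 (osteocalcin) was at 189 and 331 RPKM, against 9793 RPKM in cluster 3. Sost, made by osteocytes, had no count in either library.

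Tnn led the named genes of cluster 7 by the ratio of RPKM + 1. Tnn (tenascin-W), a matrix glycoprotein of periosteum and developing bone, was at 20.4 RPKM in cluster 4 and 109 RPKM in cluster 7, a ratio of 5.33 (5.15 to 5.51), and cluster 7 was the highest of the 7 libraries, followed by cluster 6 at 82.6 RPKM. Lrrc15, a membrane protein of activated fibroblasts, was at 4.84 and 21.8 RPKM. Prss35, a secreted protease-like protein, was at 2.22 and 15.1 RPKM and was higher still in clusters 6, 3 and 5 (91.7, 43.8 and 18.1 RPKM). Mstn (myostatin), a growth inhibitor of the TGF-beta family known from muscle, was at 2.19 and 13.7 RPKM, close to the 14.8 RPKM of cluster 1.

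Mmp13, a collagenase of bone and cartilage, was at 327 and 719 RPKM, and of 20 described matrix proteases and inhibitors it was the only one besides the neutrophil collagenase Mmp8 to be called, in either direction. Postn (periostin), Thbs2 (thrombospondin 2), Angptl7 and Mamdc2 were picked out after their values were seen. Postn was at 85.0 and 261 RPKM and Thbs2 at 91.1 and 215 RPKM. Angptl7 was at 167 and 342 RPKM and Mamdc2 at 6.12 and 19.3 RPKM. For Postn and Thbs2 cluster 7 held the highest level of all 8 libraries. Plekhg4 was at 0.608 and 4.62 RPKM, with at most 1.52 RPKM in any other library. Apol11b, an apolipoprotein L gene, was at 0.232 RPKM, from 19 counts, and 3.19 RPKM.

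**Figure D3:**
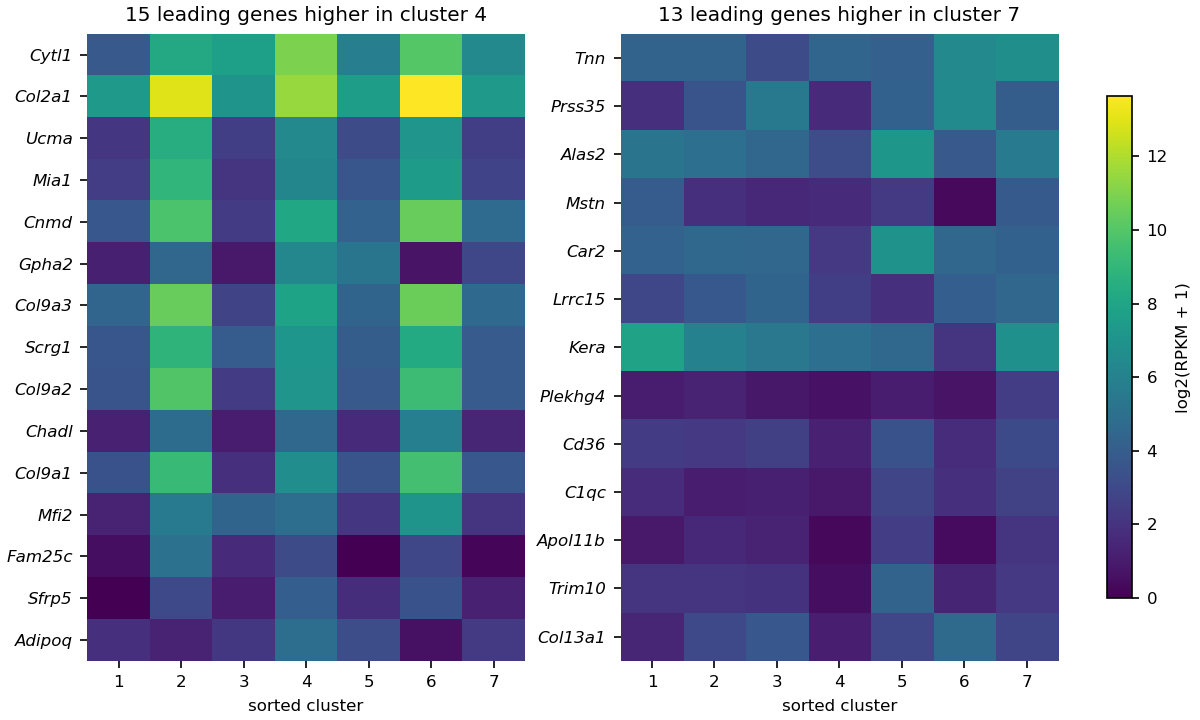
log2(RPKM + 1) (colour scale) of leading named genes in each direction (rows, 15 higher in cluster 4 and 13 higher in cluster 7) in the 7 sorted libraries (columns), 1 library each. Most cartilage genes of the left panel are brightest in clusters 2 and 6 with cluster 4 next, whereas Cytl1, Gpha2, Sfrp5 and Adipoq peak in cluster 4; in the right panel Alas2, Car2 and Trim10 peak in cluster 5.

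Of the secreted growth factor systems the Wnt list was described first. In this list 8 of 35 described genes were higher in cluster 4, beside a background of 3.11%, and 1 in cluster 7, near the background of 2.55%, with a median log2 ratio of 0.26. Of the 8 genes, 4 encode extracellular Wnt inhibitors and 4 are receptors or ligands. Wif1, the most abundant member in cluster 4, was at 365 and 76.9 RPKM. Frzb was at 26.3 and 4.66 RPKM, and its relative Sfrp5 at 15.7 and 1.39 RPKM. Dkk2, which blocks Wnt co-receptors, was at 12.8 and 5.23 RPKM. Wif1, Sfrp5 and Dkk2 were highest in cluster 4 of the sorted libraries, Frzb in cluster 6. Dkk3, a member of the Dickkopf family, was the gene higher in cluster 7, at 57.3 and 121 RPKM. The receptors Lgr6, at 4.99 and 0.792 RPKM, and Fzd9, at 22.5 and 6.77 RPKM, and the ligands Wnt11 and Rspo3 were also higher in cluster 4. The call of Lgr6 was lost in 1 alternative, at a log2 ratio of 0.79.

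Of 10 described genes of the insulin-like growth factor axis, 3 were higher in cluster 4 (background 3.11%), namely Igf2 at 19.7 and 7.85 RPKM and the binding proteins Igfbp2 at 20.3 and 7.85 RPKM and Igfbp4 at 230 and 105 RPKM. Igf2 belongs as well to a list of imprinted growth genes, of which 4 of 14 were higher in cluster 4 and none in cluster 7 (median log2 ratio 0.69, backgrounds 3.11% and 2.55%). H19, the noncoding neighbour of Igf2, was at 42.6 and 8.05 RPKM, Mest at 27.7 and 12.3 RPKM and Plagl1, a zinc finger regulator of this network, at 14.8 and 6.81 RPKM. H19 and no other of these 4 kept its call in every alternative: the lowest log2 ratios were 0.94 for Igf2, 0.92 for Mest and 0.75 for Plagl1. The lowest were 0.98 for Igfbp2 and 0.998 for Igfbp4. Dlk1, at a log2 ratio of 0.999, and Cdkn1c, at 0.99, lay just under the 2-fold mark.

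In the BMP and TGF-beta list 2 of 39 genes were higher in cluster 4, the antagonists Grem1 and Fst (follistatin, 95.2 and 42.9 RPKM), a share near the background of 3.11%. In the FGF and PDGF list these were 3 of 23 (background 3.11%), namely Fgfrl1, Spry2 and Fgf18, the last of which acts on growth plate cartilage. Fgf18 fell below 2-fold in 3 alternatives (lowest log2 ratio 0.90) and Spry2 in 1 (0.75). No member of the Notch list (11 described), the Hedgehog list (12), the list of Hox and limb transcription factors (18) or the list of ectonucleotidases and adenosine receptors (10) was called in either direction, and at the background of 5.66% lists of this size hold few calls.

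Genes of fibroblasts in the outer vessel wall, a set that includes Ly6a and Cd34, were called in both directions. Of 28 described members 4 were higher in cluster 4 (Pi16, Mfap5, Ly6a and Dpt) and 2 in cluster 7 (Dpp4 and Cd55), beside backgrounds of 3.11% and 2.55%, with a median log2 ratio of 0.41. Pi16, a surface marker of such fibroblasts, was at 22.3 and 9.89 RPKM and Mfap5, an elastic fibre protein, at 171 and 80.5 RPKM. Dpp4, which marks the same progenitors in other tissues, was at 1.05 and 4.39 RPKM and Cd55, an inhibitor of complement on the cell surface, at 6.32 and 15.1 RPKM. Under total count scaling Pi16 (log2 ratio 0.99), Mfap5 (0.95) and Ly6a (0.93) fell below 2-fold. The calls of Dpp4 and Cd55 were lost in 1 alternative each, at log2 ratios of -0.63 and -0.83. Cd34 was near equal at 55.7 and 47.0 RPKM.

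Transcripts of blood cells were present in both libraries and more abundant in cluster 7. In bulk libraries, fewer cells of a type and less RNA of that type per cell cannot be told apart. Of the blood cell lists the red cell list had the lowest median log2 ratio, -1.68, with 10 of 13 described members higher in cluster 7 and none in cluster 4. The backgrounds, here and for the blood cell lists that follow, were 2.55% and 3.11%. Its summed level over all 19 matched genes was 2228 RPKM in cluster 4 and 6704 RPKM in cluster 7. Alas2, which starts haem synthesis in red cell precursors, was at 8.42 and 46.0 RPKM. Car2 (carbonic anhydrase 2) was at 3.72 and 17.7 RPKM. Slc4a1, the anion exchanger of the red cell membrane, had a log2 ratio of -1.71. The beta-globin gene Hbb-bs, the most abundant red cell gene in cluster 7, was at 778 and 2548 RPKM, and all haemoglobin genes together took 0.171% of the counts in cluster 4 (Wilson interval 0.170 to 0.173%) and 0.561% in cluster 7 (0.559 to 0.564%). Trim10, expressed in red cell precursors, was at 0.428 and 3.72 RPKM. Clusters 5, 1 and 2 held larger haemoglobin shares than either library of the pair, at 5.21%, 1.10% and 1.01%. Cluster 3, at 0.556%, was close to cluster 7, and cluster 6 had the lowest share, 0.120%. By summed level of the red cell list, clusters 1, 2, 3 and 5 exceeded cluster 7 (12203, 12517, 7267 and 85313 RPKM). Only cluster 6, at 1970 RPKM, lay below cluster 4. Car2 was lowest in cluster 4 and next lowest in cluster 7 among the sorted libraries.

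Of 20 described genes of neutrophil granules 8 were higher in cluster 7 (background 2.55%) and none in cluster 4, with a median log2 ratio of -0.86 and a summed level of 20942 and 33403 RPKM. The most abundant, S100a9, was within 2-fold at 6695 and 9274 RPKM. Mpo (myeloperoxidase) was at 115 and 354 RPKM, and Mmp8 at 56.6 and 173 RPKM. Of 13 described macrophage and monocyte genes 6 were higher in cluster 7 (background 2.55%) and none in cluster 4 (median log2 ratio -0.9997, sums 2181 and 3926 RPKM). Lyz2, the most abundant of them, was at 1818 and 3356 RPKM with a log2 ratio of -0.88. The complement C1q chains of macrophages were at 0.901 and 5.51 RPKM for C1qc and 3.75 and 14.4 RPKM for C1qb, and Csf1r, the receptor for macrophage growth factor, had a log2 ratio of -1.45. Marco, a receptor of some macrophages, had no count in cluster 4.

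The B lineage list gave 4 of 15 genes higher in cluster 7 (background 2.55%) and none in cluster 4 (median -0.75, sums 357 and 683 RPKM), with Jchain, which joins antibody molecules into polymers, at 2.24 and 6.41 RPKM. Igkc, the kappa constant region, was the most abundant member in cluster 4 at 98.3 RPKM, and Cd74 in cluster 7 at 190.5 RPKM. Of 21 described antigen receptor gene segments 10 were higher in cluster 7 and 2 in cluster 4, beside backgrounds of 2.55% and 3.11%. Some segments had counts in 1 library of the pair and none in the other. Igkv15-103 had 316 counts in cluster 7 (22.8 RPKM) against 0 in cluster 4, and it was also present in clusters 1, 2 and 3 at 8.73, 4.72 and 4.84 RPKM. Igkv4-53 had 60 counts in cluster 4 against 0 in cluster 7. Receptor segments come in families of similar sequence, and how reads shared between genes were counted is not given in the sources used here, so these counts are uncertain.

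The list of T, NK and megakaryocyte genes gave 2 of 6 genes higher in cluster 7, Gzmb and Nkg7, with sums of 46.2 and 85.1 RPKM, and the osteoclast list gave 1 of 6, Atp6v0d2, with sums of 596 and 621 RPKM. Beside backgrounds of 2.55% higher in cluster 7 and 3.11% higher in cluster 4, lists this short hold too few genes for a share to be read. Class II histocompatibility genes, which macrophages and B cells use to present antigen, were higher in cluster 7 for Cd74, H2-Aa and H2-Ab1, and the class I gene H2-Q4 was higher in cluster 4 at 2.72 and 1.43 RPKM, a call lost in 2 alternatives. The calls of H2-Aa and H2-Ab1 were lost in 1 alternative each, at log2 ratios of -0.86 and -0.94. The 17 described class I and II genes had a median log2 ratio of -0.03. Of 7 described endothelial genes 1 was higher in each direction (Ly6c1 in cluster 4 and Esam in cluster 7), again from a short list, the defining marker Cdh5 was at 0.229 and 0.591 RPKM, and the sums were 174 and 106 RPKM, of which Ly6c1 gave 119 and 48.2 RPKM. None of 16 described pericyte and smooth muscle genes was called (sums 318 and 304 RPKM). Of the Schwann cell list S100b was higher in cluster 4, at 37.9 and 7.54 RPKM, a gene that chondrocytes also express, and Sox10, which defines Schwann cells, had 3 counts in the cluster 4 library and 0 in the other.

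**Figure D4:**
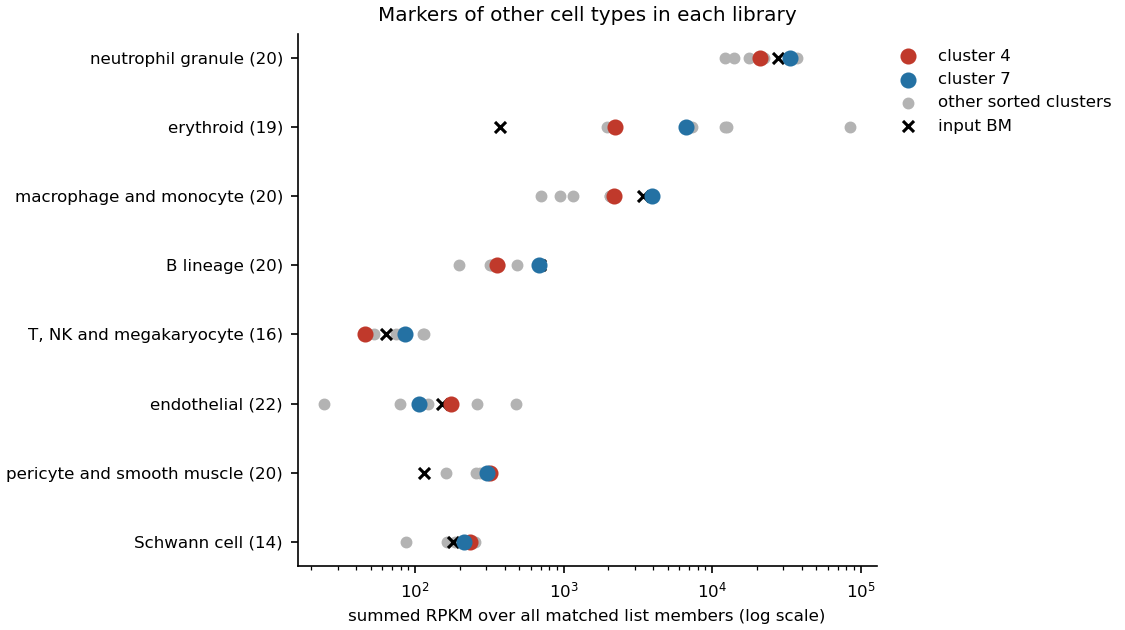
Summed RPKM over all matched members (x axis, log scale) of 8 marker lists of other cell types (rows, number of matched genes in parentheses) in each library. Cluster 7 (blue) lies to the right of cluster 4 (red) for the neutrophil, erythroid, macrophage, B lineage and T, NK and megakaryocyte lists. The sums of the pair nearly coincide for the pericyte and Schwann cell lists, the latter being mostly Pmp22, at 185 and 192 RPKM.

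The part of these blood cell transcripts in the other differences was not tested. When the blood cell lists and receptor segments were left out, 311 genes remained higher in cluster 4 and 216 higher in cluster 7, an alternative chosen after seeing the data.

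Of 29 described genes of the NF-kB pathway and its targets, which include Icam1, none was higher in cluster 4 and 1 in cluster 7, close to the backgrounds of 3.11% and 2.55%, with a median log2 ratio of 0.08. The 1 gene was Il1b (interleukin-1 beta), at 76.0 and 168 RPKM, and Il1a was likewise higher in cluster 7 at 2.72 and 10.1 RPKM. Nfkbia, the inhibitor of the pathway and its most abundant member, was at 892 and 717 RPKM. Chemokines other than Cxcl12 gave 3 of 20 genes higher in cluster 4 (Ccl8, Cxcl13 and Ccl19) and none in cluster 7, against backgrounds of 3.11% and 2.55%, with Ccl19, which guides lymphocytes and dendritic cells, at 11.6 and 4.08 RPKM and the most abundant, Cxcl1, at 812 and 490 RPKM. The calls of Cxcl13 and Ccl19 were lost in 1 alternative each, at log2 ratios of 0.50 and 0.87, whereas Ccl8 kept its call. Interleukin-11, the product of Il11 and a regulator of bone and fat cells, was at 12.3 and 3.02 RPKM at the mRNA level.

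Interferon-stimulated genes gave 1 of 26 higher in cluster 7 (Rsad2, at 1.88 and 7.26 RPKM, a call lost in 1 alternative) and none in cluster 4, which is near the backgrounds of 2.55% and 3.11%. In the complement list (18 described, backgrounds 3.11% and 2.55%) C4b (84.8 and 32.5 RPKM) and Clu (575 and 257 RPKM) were higher in cluster 4, and C5ar1, a receptor of neutrophils and macrophages (20.5 and 54.9 RPKM), and Cd55 in cluster 7. Immediate early genes, which many stimuli induce within minutes, were high and similar, with Fos at 2169 and 2338 RPKM and 2 of 29 genes higher in cluster 4 (Nr4a3 and Klf4, background 3.11%).

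In the list of heat shock and metallothionein genes 4 of 18 were higher in cluster 4, none in cluster 7 and 14 within 2-fold (backgrounds 3.11% and 2.55% called, median log2 ratio 0.48): Hmox1, which breaks down haem, at 279 and 70.3 RPKM, the metallothioneins Mt1 at 1634 and 804 RPKM and Mt2 at 1685 and 727 RPKM, and the small heat shock protein Cryab. Mt1 and Cryab fell below 2-fold under total count scaling, with log2 ratios of 0.90 and 0.93. Hspa1b, a heat shock protein 70 gene, had a log2 ratio of -0.75. Of 35 described cell cycle genes 5 were higher in cluster 7 (Bub1, Ccne2, Kif11, Plk1 and Ccnb1), none in cluster 4 and 30 within 2-fold (backgrounds 2.55% and 3.11% called, median -0.59), with Plk1, a kinase of mitosis, at 2.94 and 7.22 RPKM. All 5 fell within 2-fold with a pseudocount of 5. Cdkn1a, the inhibitor p21, was at 389 and 232 RPKM. Of the hypoxia and glycolysis list Hk2 was higher in cluster 4 and the glucose transporter Slc2a3 in cluster 7, out of 28 described genes, near the background in each direction.

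The remaining lists are read against the background of 5.66% called. The basement membrane list had Sparc higher in cluster 4 as its single call among 18 described genes. The small leucine-rich proteoglycans had Chad higher in cluster 4 and Kera higher in cluster 7 among 15, with the most abundant member Dcn (decorin) at 5594 and 5768 RPKM. The stromal cytokines had Il11 higher in cluster 4 and Il1a, Il1b and Il15 higher in cluster 7 among 22. Of 12 described mitochondrially encoded genes mt-Co2 was higher in cluster 4, with a log2 ratio of 1.02 that fell to 0.91 under total count scaling, and no sex-linked gene was called.

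The called genes were also ranked over all 7 sorted libraries. Of the 313 genes higher in cluster 4, cluster 2 held the highest level for 102, cluster 4 for 91 and cluster 6 for 56, and cluster 7 held the lowest level for 110. Of the 257 genes higher in cluster 7, cluster 7 held the highest level for 186, and the lowest was held by cluster 3 for 105 and by cluster 4 for 47. The choice of genes already favours 1 library in each set, so these counts are a description.

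Several measures of composition differed along with the called genes. The 3 loci that resemble ribosomal RNA (Rn18s-rs5, Mir689-2 and Lars2) took 1.01% of the counts in cluster 4 and 0.274% in cluster 7, all 3 being called higher in cluster 4. The 80 ribosomal protein genes, a set chosen after the data were seen, took 1.53% of the counts in cluster 4 and 0.902% in cluster 7. Of the 78 described, 77 had a ratio above 0, 20 were more than 2-fold higher in cluster 4, and the median log2 ratio was 0.90. When genes were split into 3 groups by exon length, the shortest (3359 genes, median 1664 bases) had a median log2 ratio of 0.16, with 219 higher in cluster 4 and 107 in cluster 7, against -0.08 in the longest group with 39 and 57. Mitochondrially encoded genes took 0.574% and 0.560%. The part of exon length, RNA quality or library preparation in these differences was not tested, and with 1 library per population it cannot be told apart from the populations.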

How the data were processed

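Bone marrow stromal populations were sequenced after sorting (clusters 1 to 7, 1 library each, plus 1 input library). Per the study's methods, poly(A)-selected paired-end reads were aligned by the authors with TopHat2 in Partek Flow (Partek 2.2 per the submitters' processing notes, which name mm9). The exon positions in the files match GRCm38, so the build that the counting used is not settled by the sources used here. The deposited values are raw read counts per Ensembl gene with exon lengths, in the layout of featureCounts; strand handling is not given in the sources used here, so overlapping and antisense genes cannot be told apart. Total counts were 32549319 for cluster 4 and 33238133 for cluster 7.

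Counts were divided by exon length and by TMM-scaled library size (edgeR 4.0.16 in R 4.3.3, factors from the 7 sorted libraries, 1.02 for cluster 4 and 1.11 for cluster 7) to give RPKM. Genes with RPKM above 2 and 50 counts in at least 1 of the 2 libraries were described by the log2 ratio of RPKM + 1, which understates the change of weak genes, and called beyond 2-fold. DESeq2 1.42.0 gave alternative size factors only. Ratios of RPKM carry exact binomial 95% intervals and shares Wilson intervals, for counting error only. The calculation was tested on simulated data. Symbols came from a gene name table (32464 genes) or the position of the RefSeq gene in GRCm38.p6 (5385 genes). Of 927 genes in 41 lists, 925 were matched.

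Named genes were the sort markers, the 15 with the largest ratio of RPKM + 1 in each direction (no receptor segments, pseudogenes, small RNAs or predicted names), and from each list up to 5 with the largest ratio, the most abundant, and markers at or near 0. A few named genes are not reported here. Members, lists and rules were chosen with earlier results of these data known. Alternatives in scaling, pseudocount, filter, depth, composition and fold were computed.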

Additional observations from a re-analysis of the deposited data

How the results depend on the processing

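No paired analysis was possible because clusters 4 and 7 have a single library each. Leaving out a library leaves no comparison. With a pseudocount of 5 the genes higher in cluster 4 numbered 137 and those higher in cluster 7 numbered 83, and 67 in place of 114 of the 227 named genes passed 2-fold; with 0.1 they numbered 457 and 435. Requiring RPKM above 2 and 50 counts in both libraries left 190 and 178 genes. At 1.5-fold the counts were 1008 and 939, at 4-fold 50 and 13. Total count scaling gave 237 and 371, of which 237 and 257 were shared with the counts of the report, and DESeq2 size factors gave 312 and 247 (308 and 247 shared). Without a filter the counts were 459 and 336. Leaving out ribosomal protein genes gave 293 and 257, and leaving out the cartilage and tendon list 298 and 256, both chosen after seeing the data. The cause of these changes was not tested beyond what each setting removes or rescales. No called named gene and no list median beyond 2-fold changed sign in any alternative computed. Medians near 0 did: under total count scaling 21 lists in place of 24 had a median above 0. The medians of the NF-kB, stromal cytokine and Notch lists then fell to -0.04, -0.07 and -0.02. Of 1579 named gene values 385 moved by more than their counting error, and of 449 list medians 8 moved by more than the spread of their members. Thinning both libraries to the smaller total gave 310 and 257 genes, but the totals were so close that this says nothing of whether depth limited the calls. Without replicate libraries the error between animals and sorts is unknown.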
